A study of Mus musculus with 9 samples.

Results

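The guanylate-binding proteins (Gbp) and the immunity-related GTPases (Irg) are 2 families of GTPases that interferon-gamma induces in most mouse cells. The genes described here are the rows of the authors' table of significant changes whose symbol starts with Gbp, Irgm or Tgtp, or is Igtp or Iigp1. There were 8 such rows of the 964 in that table, and of the 31648 rows measured in all. They were Gbp2, Gbp3, Gbp5, Gbp7 (which the authors' table lists as Gbp6, while its accession belongs to Gbp7 in RefSeq), Gbp10, Irgm1, Igtp (also called Irgm3) and Tgtp1 (listed as Tgtp, also called Irgb6). The authors had kept these rows because tumour-bearing and control samples differed in them, by a p under 0.001 and at least 2-fold. The group differences below therefore describe how the genes were chosen, carry no test, and support nothing further.

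The arrays measured RNA of CD11b+Gr1+ cells sorted from mouse spleens, a gate that holds neutrophils, inflammatory monocytes and their precursors. The tumour-bearing group was 6 single L2-Cre;p120f/f mice, in which Cre under the L2 promoter, active in the squamous lining of mouth and oesophagus, deletes p120-catenin (Ctnnd1) from both alleles. The control group was 3 pools, each made from 3 L2-Cre;p120+/f animals without disease, which carry the same Cre and 1 floxed allele. All mice had a mixed C57BL/6x129 background. Other label fields give an embryonic age, limb tissue and Shh genotypes that contradict the titles, so the age of the mice is not known here. The tumour, the homozygous deletion and the pooling all follow the group, so their effects cannot be told apart. Array medians ran from 5.92 to 5.99 on the log2 scale, and across rows any pair of mice correlated at 0.985 to 0.991, any pair of control pools at 0.986 to 0.990 and any mouse with any pool at 0.954 to 0.974. Of the 4 genes that define the sort, Itgam, Ly6g, Ly6c1 and Ly6c2, 0 had a named row, so the label could not be checked against them.

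Interferon-gamma binds a receptor that signals through the kinases Jak1 and Jak2. Genes with gamma-activated sites (GAS) respond first, Irf1 among them, and Irf1 binds interferon-stimulated response elements (ISRE), through which type I interferon also acts. Gbp and Irg genes carry such elements and respond to both signals. Their products act inside the cell: Irg proteins of the M class (Irgm1 and Igtp) guard the cell's own membranes and regulate the other Irg proteins, effectors such as Irgb6 load onto vacuoles that hold parasites or bacteria, and Gbp proteins follow, break such vacuoles open and expose bacterial products to inflammasomes. In macrophages and neutrophils they are a standard readout of interferon exposure.

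The sequences before the starts of these genes are shown first. Whether their elements bear on the group differences was not tested. Of the 8 genes 7 had an entry among the RefSeq promoters (build GRCm38.p6), and Gbp10 had none. The array annotation used another build, mm9. The 250 bases before each annotated start were searched on both strands for the core of the ISRE (GAAA, any 2 bases, GAAA) and for the GAS (TTCNNNGAA, which reads the same on both strands). The ISRE core matched in 7 of 7, against 3.05% of 27025 genes with 1 promoter each, and the GAS in 4 of 7 (Gbp5, Gbp7, Igtp and Tgtp1), against 7.14% of all genes. Both matched in those 4, against 0.389% of all genes. A match is a description of the letters and does not show that a factor binds. The 7 genes belong to 2 families, with some of them neighbours, so their promoters are not 7 independent observations. The stretches around the ISRE core follow, with up to 15 bases on either side, in the direction of the gene and with the matching letters in capitals. For Gbp3, which has more than 1 annotated start, the start farthest upstream was used.
Gbp2 (chr3:142620589-142620628, + strand): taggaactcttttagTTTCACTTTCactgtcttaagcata
Gbp5 (chr3:142496754-142496793, + strand): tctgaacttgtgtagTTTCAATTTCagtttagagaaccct
Gbp3 (chr3:142559984-142560029, + strand): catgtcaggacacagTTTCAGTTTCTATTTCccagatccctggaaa
Gbp7 (chr3:142530268-142530307, + strand): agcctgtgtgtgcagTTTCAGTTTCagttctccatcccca
Irgm1 (chr11:48871421-48871465, - strand): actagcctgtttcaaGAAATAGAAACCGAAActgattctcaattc
Igtp (chr11:58199507-58199546, + strand): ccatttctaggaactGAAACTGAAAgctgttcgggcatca
Tgtp1 (chr11:48992299-48992338, - strand): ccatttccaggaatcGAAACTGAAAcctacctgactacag

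The 4 Gbp genes carried the core on the strand opposite to the gene, where it reads as TTTC, any 2 bases, TTTC, and the 3 Irg genes carried it on their own strand. Gbp3 and Irgm1 each had 2 overlapping matches. The match began within 100 bases of the start in 6 of the 7 genes. The exception was Gbp5, where it began 165 bases before the start. In Igtp and in Tgtp1 a GAS ended 2 bases before the ISRE core. The longest run of letters that these 2 promoters shared, aaactagccatttc, has 14 bases and ends in the first letters of the GAS, so the promoters share sequence beyond the elements. The whole 250 bases are shown for Gbp2, the gene with the largest difference between the groups, for Gbp5, where a GAS lies 52 bases before the start and the ISRE core farther away, and for Igtp, where both are adjacent. Capitals mark ISRE core and GAS matches.
Gbp2 (chr3:142620413-142620662, + strand): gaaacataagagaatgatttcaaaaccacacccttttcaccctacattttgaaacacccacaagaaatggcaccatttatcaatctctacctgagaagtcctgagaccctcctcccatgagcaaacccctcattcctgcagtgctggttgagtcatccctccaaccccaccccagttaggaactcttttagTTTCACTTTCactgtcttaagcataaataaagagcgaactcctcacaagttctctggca
Gbp5 (chr3:142496684-142496933, + strand): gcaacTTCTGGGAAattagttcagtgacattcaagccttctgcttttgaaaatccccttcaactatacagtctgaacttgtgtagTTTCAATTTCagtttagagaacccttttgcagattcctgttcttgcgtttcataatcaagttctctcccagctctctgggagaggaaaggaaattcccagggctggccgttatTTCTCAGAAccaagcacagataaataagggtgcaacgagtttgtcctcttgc
Igtp (chr11:58199306-58199555, + strand): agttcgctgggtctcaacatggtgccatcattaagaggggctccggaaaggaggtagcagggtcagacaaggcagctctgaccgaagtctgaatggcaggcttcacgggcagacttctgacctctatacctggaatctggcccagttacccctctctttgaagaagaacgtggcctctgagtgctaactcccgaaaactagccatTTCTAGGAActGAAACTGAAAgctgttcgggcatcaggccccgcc

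**Figure D1:**
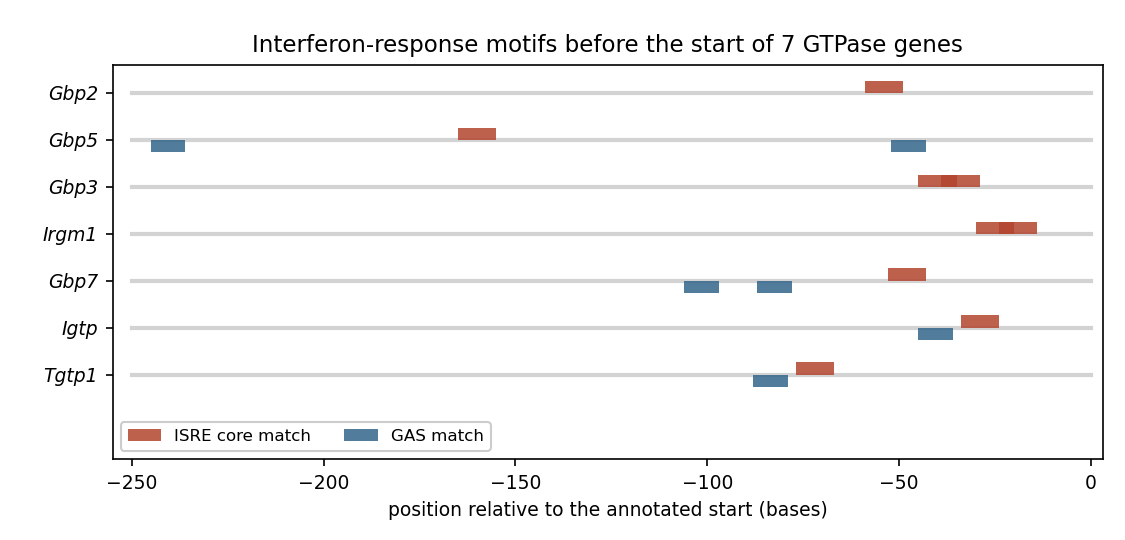
Matches to the ISRE core (red) and the GAS (blue) in the 250 bases before the annotated start of 7 GTPase genes. The horizontal axis is the position in bases relative to the start. Red bars lie within 100 bases of the start in every gene shown except Gbp5, and darker red marks the overlap of 2 matches in Gbp3 and Irgm1.

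The ISRE core was also found before 24 of 266 other genes of the authors' table with lower levels in the tumour-bearing group (9.02%), and before 10 of 381 genes with higher levels (2.62%). Among gene lists used below, it was found before 2 of 6 type I interferon genes, 3 of 4 p200 genes and 0 of 4 interferon-gamma pathway genes. The ISRE core was found before 1 of 2 MHC class II genes and 1 of 20 mitosis genes. The GAS was found in 6.77% of the lower and 5.77% of the higher genes. By list, the GAS was found before 2 of 4 interferon-gamma pathway genes and 0 of 6 type I interferon genes. It was found before 0 of 4 p200, 0 of 2 MHC class II and 0 of 20 mitosis genes. Only genes with a promoter entry were counted, 266 of the 402 other lower genes and 381 of the 485 higher genes.

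The 8 GTPase genes were lower in tumour-bearing mice by 2.34-fold to 3.80-fold. The median difference was -1.61 on the log2 scale, against 0.02 over all rows. Every mouse lay below every control pool for each of the 8 genes, which was so for 9.39% of all rows. All 8 were among the rows that limma, a linear model fitted across all rows, called at least 2-fold lower at an adjusted p under 0.05, a share of 1.77% of all rows. Because the genes were chosen through this contrast, nothing is read from these shares. In sorted cells taken as a bulk, fewer cells of a type and less RNA per cell cannot be told apart. The genes are given below in the order of their roles, with values in log2 expression units and differences as tumour-bearing minus control.

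Gbp2, a GTPase that coats vacuoles of Toxoplasma and of bacteria in mouse cells and promotes caspase-11 signalling, had the largest difference of the 8. Its level ran from 6.90 to 7.61 with a median of 7.20 in the tumour-bearing mice, against 8.77, 9.21 and 9.39 in the control pools. The groups did not overlap, and a gap of 1.16 separated the highest mouse from the lowest pool. The difference was -1.92 ± 0.18 (SE of the fit), 3.80-fold lower. Gbp5, which promotes assembly of the Nlrp3 inflammasome, ran from 4.76 to 5.20 with a median of 4.96 in tumour-bearing mice, against 6.71, 6.71 and 6.85 in the pools. Its gap of 1.51 was the widest of the 8, and its difference was -1.77 ± 0.10 (SE), 3.40-fold.

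Gbp3 and Gbp7 lie in the same cluster on chromosome 3 as Gbp2 and Gbp5, and Gbp5, Gbp7 and Gbp3 are consecutive coding genes there. Gbp3 ran from 6.24 to 6.57 (median 6.37) in tumour-bearing mice, against 7.98, 7.87 and 8.29 in the pools. It had the tightest mice of the 8 (SD 0.12, n = 6), and its difference was -1.67 ± 0.10 (SE). Gbp7, which brings oxidase and autophagy proteins to bacterial vacuoles in mouse macrophages, ran from 7.59 to 8.16 (median 7.81) in tumour-bearing mice, against 9.11, 9.47 and 9.56 in the pools. Its difference was -1.50 ± 0.15 (SE), with a gap of 0.95 that was the narrowest of the 8. Gbp10 belongs to a second cluster, on chromosome 5, next to Gbp4 and its near-identical copy Gbp6, so its row is uncertain as to the gene. It ran from 4.21 to 5.09 (median 4.59) in tumour-bearing mice, against 6.07, 6.61 and 6.15 in the pools. Its mice varied most, with an SD of 0.37 (n = 6), and its difference was -1.65 ± 0.23 (SE).

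Among the Irg genes on chromosome 11, Irgm1, the M-class regulator without which mice cannot control several intracellular bacteria, ran from 6.02 to 6.64 (median 6.43) in tumour-bearing mice, against 8.01, 7.78 and 8.04 in the pools. Its difference was -1.56 ± 0.14 (SE), 2.96-fold lower. Igtp, the other M-class regulator measured here and one that mice need against Toxoplasma, ran from 6.25 to 6.90 (median 6.68) in tumour-bearing mice, against 8.03, 8.03 and 8.15 in the pools. The pools were close together (SD 0.07, n = 3), and the difference was -1.42 ± 0.14 (SE). Tgtp1, an effector that loads onto parasite vacuoles, had the smallest difference of the 8. It ran from 5.30 to 5.64 (median 5.52) in tumour-bearing mice, against 6.77, 6.70 and 6.67 in the pools, a difference of -1.23 ± 0.08 (SE), 2.34-fold. Tgtp1 has a near-identical copy, Tgtp2, so its row is uncertain as to the gene.

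The 8 differences lay beyond the authors' 2-fold minimum, with Tgtp1 the nearest to it at -1.23. The smallest difference of any row in the authors' deposited table was 1.0003 in size, and rows just short of the minimum have no names here. The tumour-bearing means of Gbp5 (4.99), Gbp10 (4.63) and Tgtp1 (5.49) were below every array median. No call against background was made, so for these 3 genes the fold may understate the change. Iigp1, Irgm2 and the other Gbp genes had no named row and were not analysed here.

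**Figure D2:**
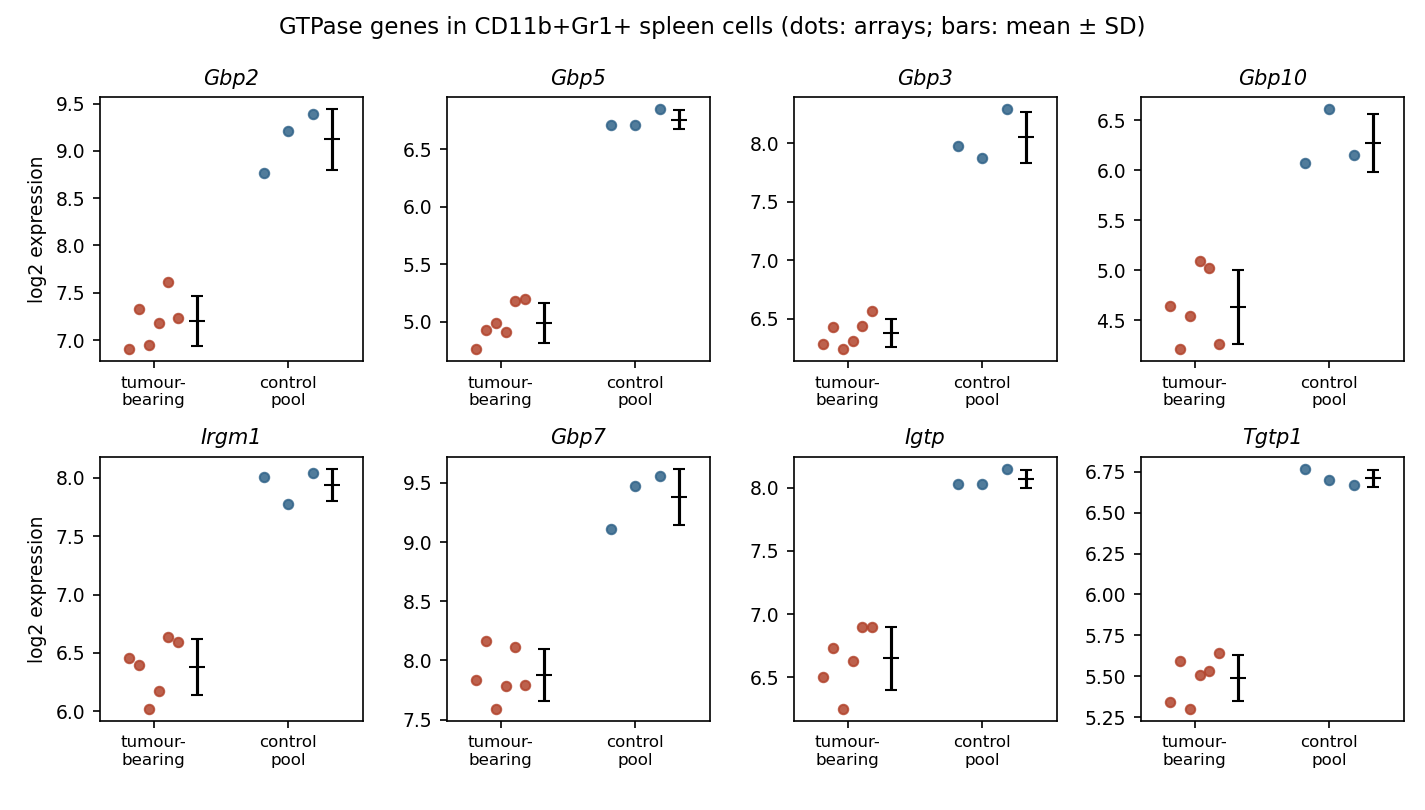
Log2 expression of the 8 GTPase genes in 6 tumour-bearing mice (red) and 3 control pools (blue), 1 dot an array, with the mean ± SD beside the dots. Each panel has its own vertical scale. In every panel all red dots lie below all blue dots, with gaps of 0.95 (Gbp7) to 1.51 (Gbp5).

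The wider interferon-gamma pathway was followed through 40 genes, from the ligand to the targets, of which 8 had a named row. Of these 7 were lower and Nos2 was higher by the fit across all rows, where 8.83% of all rows were called lower and 14.3% higher (limma, Benjamini-Hochberg). These 8 have names because the authors' test had already selected them on the same samples, so the calls follow from that selection and the count is not independent evidence. The ligand gene Ifng, the receptor genes, the kinase genes and the inhibitors, such as Socs1, had no named row and were not analysed here. Among the regulators, Irf1 fell by 1.37 ± 0.09 (SE) on the log2 scale, with 7.44 to 7.85 in tumour-bearing mice and 8.91 to 9.04 in the pools. Nlrc5, the transactivator of MHC class I genes, fell by 1.22 ± 0.07, and Ciita, that of MHC class II genes, fell by 1.94 ± 0.15. The median difference of the 8 named genes was -1.18, against 0.02 over all rows.

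Among the targets, Psme2 of the proteasome activator fell by 1.10 ± 0.15 (SE) and the adhesion gene Icam1 fell by 1.13 ± 0.08. Cd274, which encodes PD-L1, had the largest difference of the 8, -3.15 ± 0.12, with 6.21 to 6.56 in tumour-bearing mice and 9.26 to 9.74 in the pools. Nos2, which makes nitric oxide and which interferon-gamma induces together with microbial signals, ran the other way. It averaged 7.38 ± 0.30 across the 6 mice and 5.86 ± 0.02 across the 3 pools (SD), a rise of 1.52 ± 0.16 (SE). The pools' mean of Nos2 was below every array median, so its fold may be understated.

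A named row was also found for 2 further GTPase genes. Gvin1, a very large interferon-inducible GTPase, fell by 2.18 ± 0.16 (SE), and Mx1, of the dynamin-like GTPases, fell by 1.36 ± 0.08. Of 18 genes of the inflammasome and autophagy machinery with which Gbp and Irg proteins act, 5 had a named row, and all 5 fell (median difference -1.70), again among rows named through the authors' selection on these samples, so nothing is read from the count. Nlrp3, the sensor whose inflammasome Gbp5 promotes, fell by 2.73 ± 0.16, and Aim2, a sensor of DNA that Gbp proteins help to expose, fell by 1.31 ± 0.12. Among the cytokine genes whose products inflammasomes mature, Il1b fell by 2.51 ± 0.31 and Il18 fell by 1.19 ± 0.15. Atg3, an enzyme of the autophagy conjugation system that places Gbp and Irg proteins on vacuoles, fell by 1.70 ± 0.19.

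**Figure D3:**
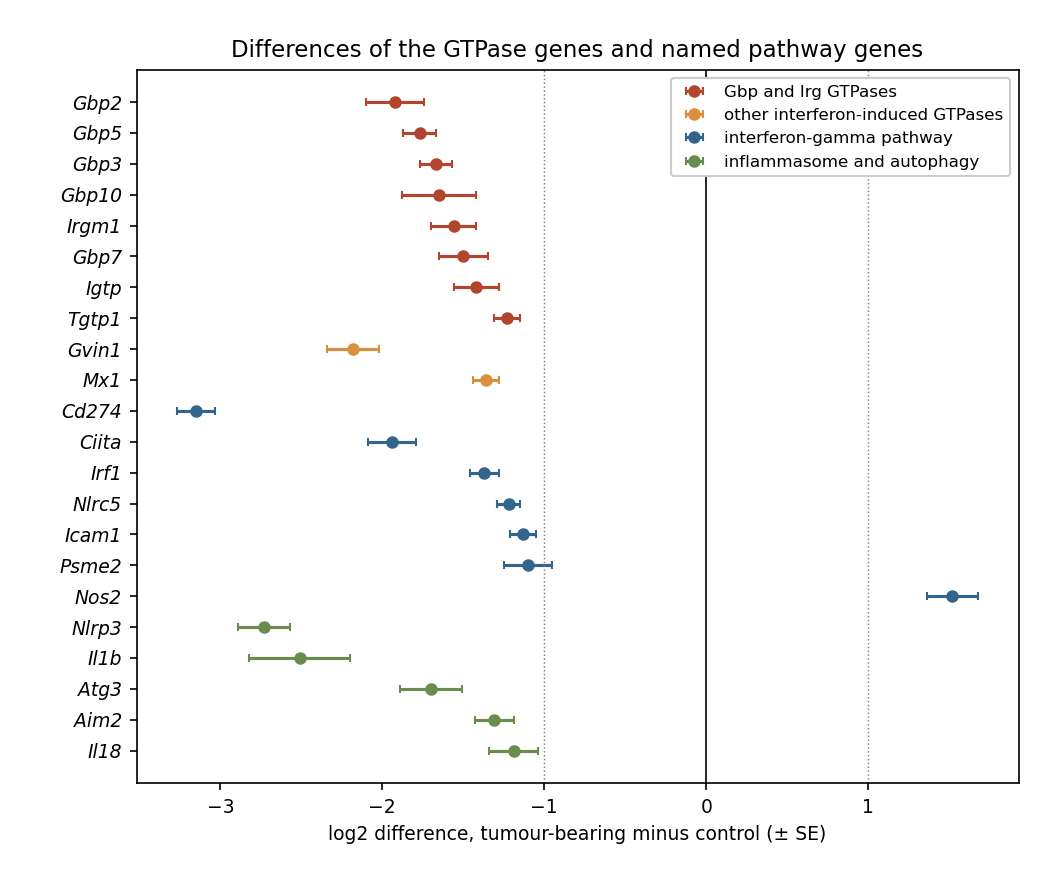
Log2 difference, tumour-bearing minus control, with the SE of the fit, for the 8 GTPase genes and the named genes of 3 related lists. Dotted lines mark the 2-fold limit of the authors' table. All points but Nos2 (1.52) lie at or below -1.10.

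Named markers of several cell types also differed between the groups, some lower and some higher in tumour-bearing mice. Of 6 monocyte and macrophage markers 4 had a named row (Csf1r, Ccr2, Adgre1 and Mpeg1) and all 4 were lower, with a mean level of 8.73 to 9.27 in tumour-bearing mice and 10.55 to 10.73 in the pools. Both named dendritic cell markers of 5, Itgax and Cd209a, were lower, at 6.32 to 6.62 in the mice and 8.77 to 9.38 in the pools. All 5 neutrophil precursor markers were higher, at 11.32 to 12.16 in the mice and 7.61 to 8.29 in the pools. Cd22, the named B cell marker of 4, was lower at 6.01 to 6.40 in the mice and 8.18 to 8.58 in the pools. Csf3r, the named neutrophil marker of 7, was lower at 11.06 to 11.46 in the mice and 12.13 to 12.43 in the pools, and Tfrc, the named erythroid marker of 3, was higher at 7.05 to 7.96 in the mice and 5.99 to 6.33 in the pools. T cell, natural killer cell, eosinophil and platelet markers had no named row. These markers have names because the authors' test had selected them on the same samples, so each had to differ. Nothing is read from the counts. Over all rows 8.83% were called lower and 14.3% higher, and in 9.39% every mouse lay below every pool. The part of these cell types in the group differences was not tested.

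The authors' selection test weighs the spread within each group, so the size of the variation among the 6 tumour-bearing mice entered the choice of the genes. Which mouse was high or low in a gene did not. The mean of the 8 genes was 6.09, 6.22, 5.98, 6.20, 6.43 and 6.27 in mice 1 to 6, against 7.68, 7.80 and 7.89 in pools 1 to 3. Mouse 3 had the lowest value of the 6 in 5 of the 8 genes, and mouse 5 had the highest or second highest in 7 of 8. This spread was small beside the distance between the groups, with an SD of 0.15 (n = 6) against a difference of -1.59. The SD of each gene over the mice, 0.12 to 0.37, was above that of the median row (0.11) in 8 of 8 genes, which is given as a description.

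Over the 28 pairs of genes the correlation across the 6 mice had a median of 0.61 and was positive in 23 pairs. The highest r were those of Gbp3 with Tgtp1 (r = 0.90, rho = 0.94) and Igtp with Tgtp1 (r = 0.90, rho = 0.90), with exact permutation p = 0.00694 and 0.0167 for r and 0.0167 and 0.0278 for rho. Without the 2 mice farthest from the median of the first gene, r was 0.80 and 0.95. In all 5 pairs had an unadjusted p under 0.05 and 0 had an adjusted p under 0.05 (exact permutation of mice, two-sided, Benjamini-Hochberg over 28 pairs, smallest adjusted p = 0.156), and with rho these counts were 4 and 0. The smallest two-sided p that 720 orders of 6 mice can give is 0.00139 for r and 0.00278 for rho. The 3 Irg genes had a median r of 0.84 over their 3 pairs. The 5 Gbp genes had a median r of 0.34 over their 10 pairs, which include those with Gbp10. Gbp pairs without Gbp10 had r of 0.14 (Gbp5 with Gbp7) to 0.76 (Gbp2 with Gbp7). Gbp10 stood apart, with r from -0.39 to 0.21 in its 7 pairs, and the other 21 pairs had a median of 0.67. Its row is dim and of uncertain gene, as said above.

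**Figure D4:**
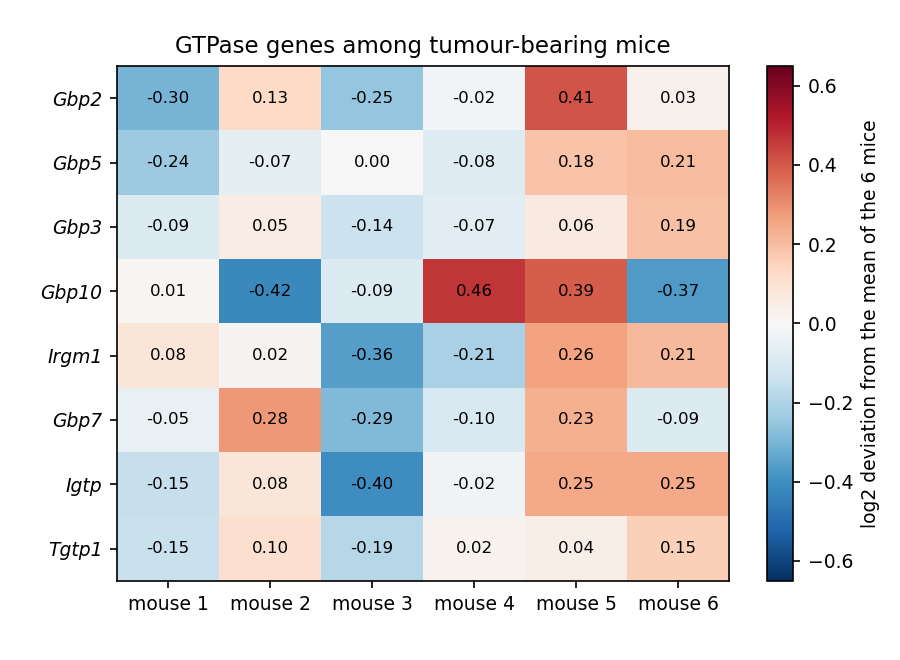
Deviation of each GTPase gene from its mean over the 6 tumour-bearing mice, on the log2 scale (blue below, red above the mean). Mouse 3 is at or below the mean in 8 of 8 genes and mouse 5 is above it in 8 of 8. Gbp10 follows another order, with mouse 4 highest and mice 2 and 6 lowest.

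The mean of the 8 genes was then set against the means of 7 other gene lists in the same 6 mice. It followed the 9 named genes that type I interferon induces, which stood at 7.11, 7.46, 6.98, 7.32, 7.54 and 7.47 in mice 1 to 6, against 9.05, 8.90 and 9.15 in the pools. Both measures put the 6 mice in the same order, from mouse 3 through 1, 4, 2 and 6 to mouse 5. Pearson's r was 0.94 (exact permutation p = 0.00139, adjusted p = 0.00972 over 7 lists) and Spearman's rho was 1.0 (exact permutation p = 0.00278, adjusted p = 0.0194), and both p are the smallest that 6 mice can give. Without the 2 mice farthest from the median of the GTPase mean, r was 0.96. Of the 7 lists, among which the interferon-gamma pathway list was not, only this one passed the threshold. With 5 mice, leaving out any one of mice 2 to 6 gave r of 0.88 to 0.98 and adjusted p of 0.0583 to 0.175 (exact permutation). Without mouse 1 the adjusted p was 0.0292. With 5 mice and 7 lists, 1 list alone cannot reach an adjusted p below 0.0583, so these p cannot show that the relation was lost. The lower value without mouse 1 arose because the immediate-early list shared the smallest p that 5 mice can give.

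Of 30 type I genes on the list 9 had a named row. All 9 were lower, where 8.83% of all rows and 402 of the 887 other named genes were, and all had been selected by the authors for a change. Their median difference was -1.52, with the largest in Ifi44 (-3.03), Oasl2 (-2.45), Usp18 (-1.91) and Rsad2 (-1.74). Among them, Trim30a (r = 0.94 with the GTPase mean), Irf7 (0.91), Xaf1 (0.90) and Zbp1 (0.90) followed most closely, and Ifi44 (0.31) least. Of the interferon-gamma pathway genes, Psme2 (0.89), Irf1 (0.85) and Cd274 (0.83) followed the GTPase mean across the 6 mice. Nlrc5 stood at 0.58, Ciita (0.25) and Icam1 (0.33) followed weakly, and Nos2 ran at -0.44. The 8 named pathway genes had a median r of 0.70 (7 positive), and the 9 type I genes 0.85 (9 positive). The mean of the pathway list was not tested against the GTPase mean. Over the 402 other lower genes of the authors' table the median r was 0.53, and 352 were positive. These single values are descriptions without a test.

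The immediate-early genes, a class that stimulation or handling of cells induces, had r = 0.93 and rho = 0.94 with the GTPase mean (exact permutation p = 0.0153 and 0.0167, adjusted p = 0.0535 and 0.0583), and r = 0.48 without the same 2 mice. Without mouse 1 alone r was 0.99, and the exact permutation adjusted p was 0.0292, as this list and the type I list then shared the smallest p. The immediate-early list mean varied little, from 8.89 to 9.01 among the mice, against 10.20 to 10.51 in the pools. After centring on array medians r was 0.82, and after quantile normalization it was 0.78. Taken singly, the 9 named immediate-early genes had r of -0.41 to 0.77 with the GTPase mean (median 0.58, 7 positive). MHC class II genes had r = 0.60 and rho = 0.71 (exact permutation p = 0.199 and 0.136), and the interferon-inducible p200 family had r = 0.57 and rho = 0.71 (exact permutation p = 0.224 and 0.136). Monocyte and macrophage markers had r = 0.15 and rho = -0.09 (exact permutation p = 0.772 and 0.919). Primary granule genes had r = -0.21 and rho = -0.09 (exact permutation p = 0.713 and 0.919), and mitosis genes had r = -0.56 and rho = -0.66 (exact permutation p = 0.246 and 0.175). The adjusted p of these 5 lists were at least 0.344 for r and 0.238 for rho. Without the same 2 mice r was 0.84, 0.87, 0.58, -0.73 and -0.83, in the order given. Whether these correlations differ from that of the type I genes was not tested. The mean of all 402 other lower genes of the authors' table, a comparison chosen after the data had been seen, also followed the GTPase mean (r = 0.90, rho = 0.94, exact permutation p = 0.0153 and 0.0167, r = 0.91 without the 2 mice), as the interferon genes did.

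**Figure D5:**
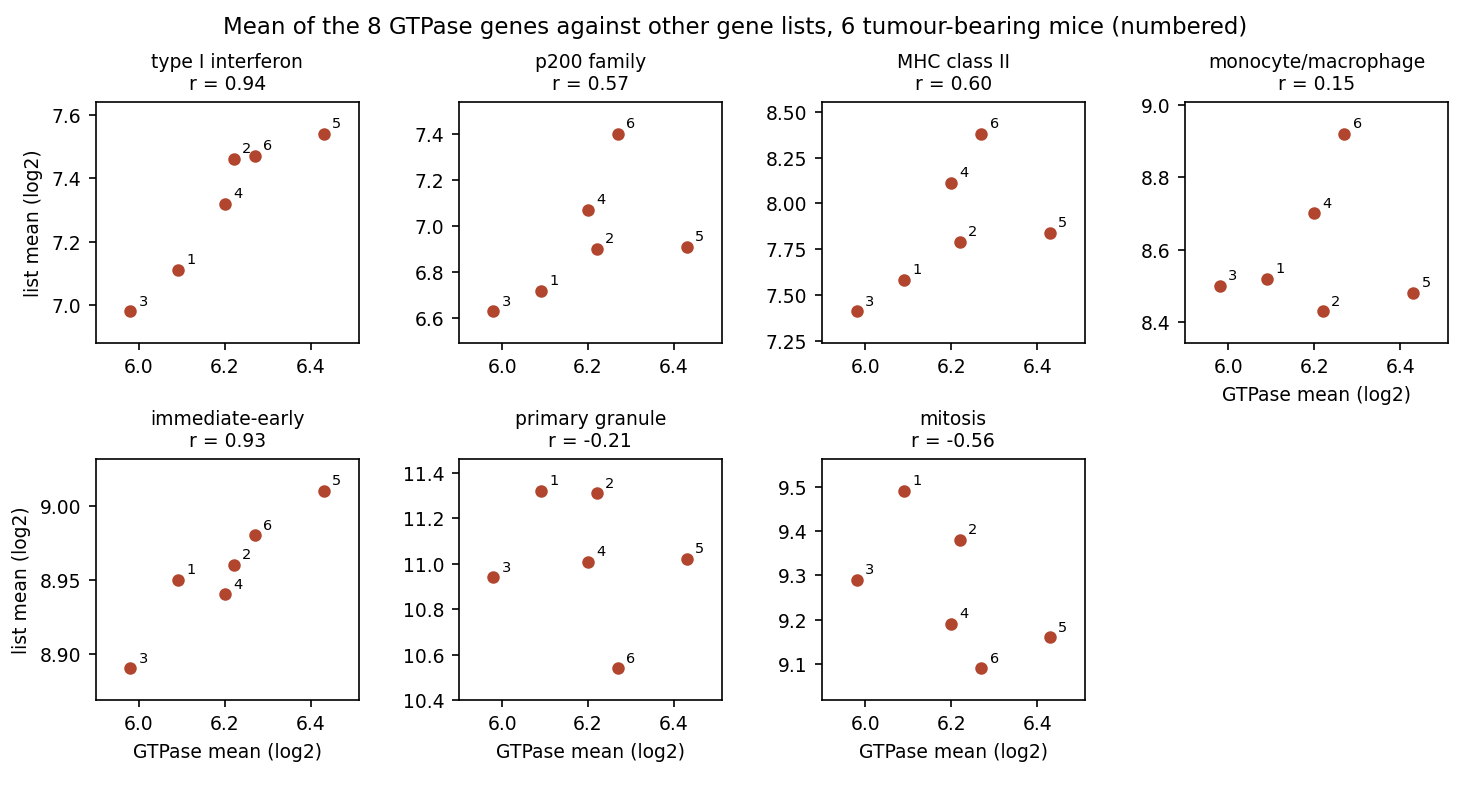
Mean log2 level of each of 7 gene lists against the mean of the 8 GTPase genes in the 6 tumour-bearing mice, numbered 1 to 6. The type I interferon panel (r = 0.94) has the mice in the same order on both axes, and the monocyte and macrophage panel (r = 0.15) does not.

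Genes with a pattern most like that of the GTPases were sought among the 887 other gene names of the authors' table, by the correlation of deviations from the group means over all 9 samples. The 5 most alike were Trim30d (listed under an older clone name, r = 0.90), Cd300c, an activating receptor of the CD300 family (0.90), Irf7, the factor that amplifies type I interferon (0.90), Zbp1, a sensor of nucleic acids (0.88), and Nod2, a sensor of bacterial cell wall fragments (0.86). The median over all 887 genes, higher and lower together, was -0.11. Across the 6 mice alone the median r was -0.08 over all 887 genes and 0.53 over the 402 lower ones. All 5 were also lower in tumour-bearing mice, with differences of -1.15 (Zbp1) to -2.33 (Trim30d), and every row of the authors' table differs at least 2-fold. Trim30d and Cd300c also hold the ISRE core in the 250 bases before their start, as did 9.02% of the other lower genes with a promoter entry. Irf7, Zbp1 and Nod2 were not among the genes in which it was found. Whether these have a promoter entry is not given here.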

How the data were processed

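Per the labels' protocols, RNA of sorted CD11b+Gr1+ splenocytes was amplified, labelled with biotin and hybridised to Affymetrix arrays. The deposited values are log2 expression, normalized across arrays by the authors. Per the submitters' processing notes, tools included RMA, PLIER and Affymetrix Power Tools, and the build was mm9. The sources used here give neither versions nor the method behind the deposited values, which span 1.95 to 13.95. Arrays give no molecule count, and their number limits the precision.

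Each of the authors' 964 rows was found once among the deposited values, by agreement of its 9 values at 5 decimals, and those rows alone have names. Names were updated through RefSeq, 717 of them by accession. The table of promoters is from RefSeq too. All 31648 rows were fitted in R 4.3.3 using limma 3.58.1 (eBayes after lmFit, two-sided, with Benjamini-Hochberg adjustment and a threshold of 0.05). Correlations among mice were tested by exact permutation with numpy 2.4.6. Each pair of genes was tested: the design had foreseen 6 pairs of 4 genes, and the selection rule gave 8 genes and 28 pairs. Both procedures were tested on simulated data. The labels do not say whether samples were processed in batches, and single mice and pools were taken as replicates.

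The genes and lists were chosen with earlier results of these data known. The text names the 8 genes, the pathway genes with a named row (1 is in the counts but not reported here), the 5 genes of most similar pattern by deviations from the group means, up to 4 genes a list by size of difference, and, where a list is discussed gene by gene, others chosen after their values were seen. Each gene named has the row of highest mean, and each of the 8 has 1 row. Tried as alternatives were the methods' t-test, a trended robust fit, quantile normalization, centring on array medians, dropping dim rows, a block for the replicate number, rank correlation, a longer promoter window and the omission of each sample.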

Additional observations from a re-analysis of the deposited data

How the results depend on the processing

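For the differences of the 8 GTPase genes, 103 of 104 values under alternatives stayed within 1 SD of the mice, and 0 of 104 reversed. The exception was Gbp3 without control pool 3, at -1.55. The mean difference of the 8 genes was -1.69 to -1.60 under centring, quantile normalization and the replicate block, and -1.64 to -1.54 when 1 sample was left out. The pathway counts were 7 lower and 1 higher under each of the 15 alternatives, which says little about stability, since the authors' stricter thresholds on the same samples had selected those genes. Over all rows 7333 changed. A fit with the replicate number as a block, on 3 mice and 3 pools, called 4289 (2815 higher, 1474 lower) from fewer samples. Deviations of samples that share a number correlated at 0.094, 0.007 and 0.023, and no pairing was taken from them. The other 5 alternatives gave counts within 1.5 times. Quantile normalization gave 4014 higher and 3570 lower rows, against 4538 and 2795 as deposited. Leaving out 1 sample gave 6201 to 7113 rows, 3688 to 4505 higher and 2398 to 2657 lower. At the authors' thresholds 969 rows passed the methods' t-test, and 6611 rows passed after adjustment alone. The 8 genes were chosen by that test, so their passing it adds nothing.

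The correlation with the type I interferon genes was 0.93 to 0.94 after centring or quantile normalization and 0.88 to 0.98 when 1 mouse was left out. Its adjusted p was then above 0.05 in 5 of 6 cases, and between 0.0292 and 0.175 over all 6, where 5 mice leave few orders to permute. As 1 list alone cannot fall below 0.0583 with 5 mice, nothing is read from these p. For the immediate-early genes r was 0.82 after centring and 0.78 after quantile normalization (exact permutation adjusted p = 0.16 and 0.233). With 1 mouse left out it was 0.86 to 0.99. The adjusted p passed only without mouse 1 (r = 0.99, adjusted p = 0.0292), where this list and the type I list shared the smallest p. The sign of the correlation with monocyte and macrophage markers was not settled: it was -0.12 to 0.58 with 1 mouse left out, -0.02 without mouse 3, -0.12 without mouse 6, and -0.09 as a rank correlation. The median correlation over the pairs of genes was 0.45 to 0.70 with 1 mouse left out. With the full 300 bases of the promoter table, 7 and 4 of 7 genes held the ISRE core and the GAS. No background signal was used to tell dim from undetected rows.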

Other observations

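Other genes that were lower in tumour-bearing mice also hold the ISRE core in the 250 bases before their start. They were read from the 24 genes found, after their values were seen. They include the p200 genes Ifi205 (-2.75), Ifi207 (-1.90) and Ifi213 (-1.34), the schlafen genes Slfn5 and Slfn8 (-2.46 each), Phf11a (-2.28), Calhm6 (-2.07), the signalling lymphocyte receptor gene Slamf8 (-1.77) and the antiviral gene Rsad2 (-1.74). Jaml had the largest difference of the 24 (-2.87), and Eif2s1 (-1.81), Cytip (-1.66) and Nav1 (-1.14) were also among them. Of the 24 genes, Sirpb1a (-2.29) and Tnfrsf1b (-1.41), the second receptor for tumour necrosis factor, also hold a GAS. The values are log2 differences, tumour-bearing minus control.

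Values recur exactly between samples. Igtp had the same value to 5 decimals in mice 5 and 6, and Gbp5 in pools 1 and 2. Among all rows 14389 of 31648 (45.5%) had at least 2 samples of equal value. Of 52 items examined among the tumour-bearing mice, the 8 genes and the named list genes among them, 0 had a mouse that stood apart from the rest by Dixon's criterion.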
